A study of Mus musculus with 6 samples.

Results

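The genes described here encode 3 antioxidant enzymes, Gpx1, Gpx6 and Sod3, which are 3 of the 456 panel genes counted in 22154 single mouse kidney cells. They are columns of the deposited count table and were chosen by their counts per library and cell class under furosemide against vehicle, in earlier work on the same cells. Levels under furosemide against vehicle are therefore given as a description, without a p-value. A group of 3 libraries (numbered 2, 4 and 6) came from C57BL/6J mice fed furosemide at 70 mg/kg body weight, and a group of 3 libraries (1, 3 and 5) from mice fed vehicle. By their labels the mice of both groups were wild type (WT). They were 16 weeks old and ate for 1 week a gel food with 104 µmol sodium per kcal. Furosemide is a loop diuretic, which blocks the sodium-potassium-chloride cotransporter (Slc12a1) of the thick ascending limb. The cells came from dissociated whole kidneys, so that a library holds those cell types that survived collagenase and filtering, and the labels do not say whether a library came from 1 animal.

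Superoxide dismutases turn superoxide into hydrogen peroxide, and glutathione peroxidases then reduce the peroxide to water at the expense of glutathione. Gpx1 is the cytosolic peroxidase found in nearly all cells and is a selenoprotein. Gpx6 is a related peroxidase, a selenoprotein in humans but with cysteine in its active site in mice. Sod3 is the secreted, extracellular superoxide dismutase. The proximal tubule reabsorbs most of the filtered sodium and burns much oxygen, whereas the thick ascending limb and distal convoluted tubule carry the sodium transporters that loop diuretics and thiazides block.

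In the GENCODE annotation of GRCm38, Gpx1 lies at chr9:108338903-108340343, Gpx6 at chr13:21312125-21319624 and Sod3 at chr5:52363791-52371418, all on the plus strand, and no other annotated gene overlaps any of them. The stretches below show the codon of the active site, in capitals, with the coding bases on either side of it, because it is where both peroxidases differ in kind. They are 45 bases each, on the plus strand, at chr9:108339430-108339474 in exon 1 of Gpx1 and at chr13:21313756-21313800 in exon 2 of Gpx6. The codon of Gpx6 was found by aligning the 2 translated proteins, with the selenocysteine of Gpx1 written as cysteine.
Gpx1: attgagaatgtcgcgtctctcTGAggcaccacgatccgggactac
Gpx6: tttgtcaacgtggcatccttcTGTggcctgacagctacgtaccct
The capitals of Gpx1 are an in-frame TGA, annotated as selenocysteine, and those of Gpx6 are TGT, a cysteine codon. The stretches share 23 of 45 bases.

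Library totals ranged from 4928550 to 7635509 counts in furosemide libraries and from 4819988 to 6315516 counts in vehicle libraries, with medians of 1218 to 1407 and 1073.0 to 1539.5 counts per cell. Counts were summed per library and per cell class of the authors, in 15 classes. A level is the gene's part of all panel counts of that sum, in CPM, so that it is a share and also moves when other panel genes move. Marker lists were set beside the classes. The classes came from clustering of these same panel genes, so that this is no independent check. All 10 proximal markers were highest in a proximal class and 6 of 7 thick ascending limb (TAL) markers in TAL. All 4 distal convoluted tubule (DCT) markers were highest in DCT or its late part, DCT2. Only 2 of 4 Thin Limb markers and 1 of 3 markers of type A intercalated cells (AIC) were highest in their class. In 392 cells the barcode number occurred in more than 1 library, and leaving those cells out, a choice made after seeing the data, kept the calls of all 3 genes in every class.

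Gpx6 was a gene of the thick ascending limb and the distal convoluted tubule. In vehicle libraries it reached 9739 ± 970 CPM in TAL, 3937 ± 754 CPM in DCT and 806 ± 146 CPM in DCT2, the late distal convoluted tubule (mean ± SD, n = 3), and these 3 levels were apart in all libraries. The next class was AIC with 134 ± 102 CPM, and the other 11 classes averaged 10.7 to 47.3 CPM and overlapped their neighbours in the order. Outside TAL, DCT and DCT2, Gpx6 stood at 0% to 4.55% of the TAL level of its library, while Slc12a1, the cotransporter that defines TAL, stood at 0.0319% to 1.25%. In the mystery cells, a class the authors left unnamed, a single count of Gpx6 was found over all libraries.

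**Figure D1:**
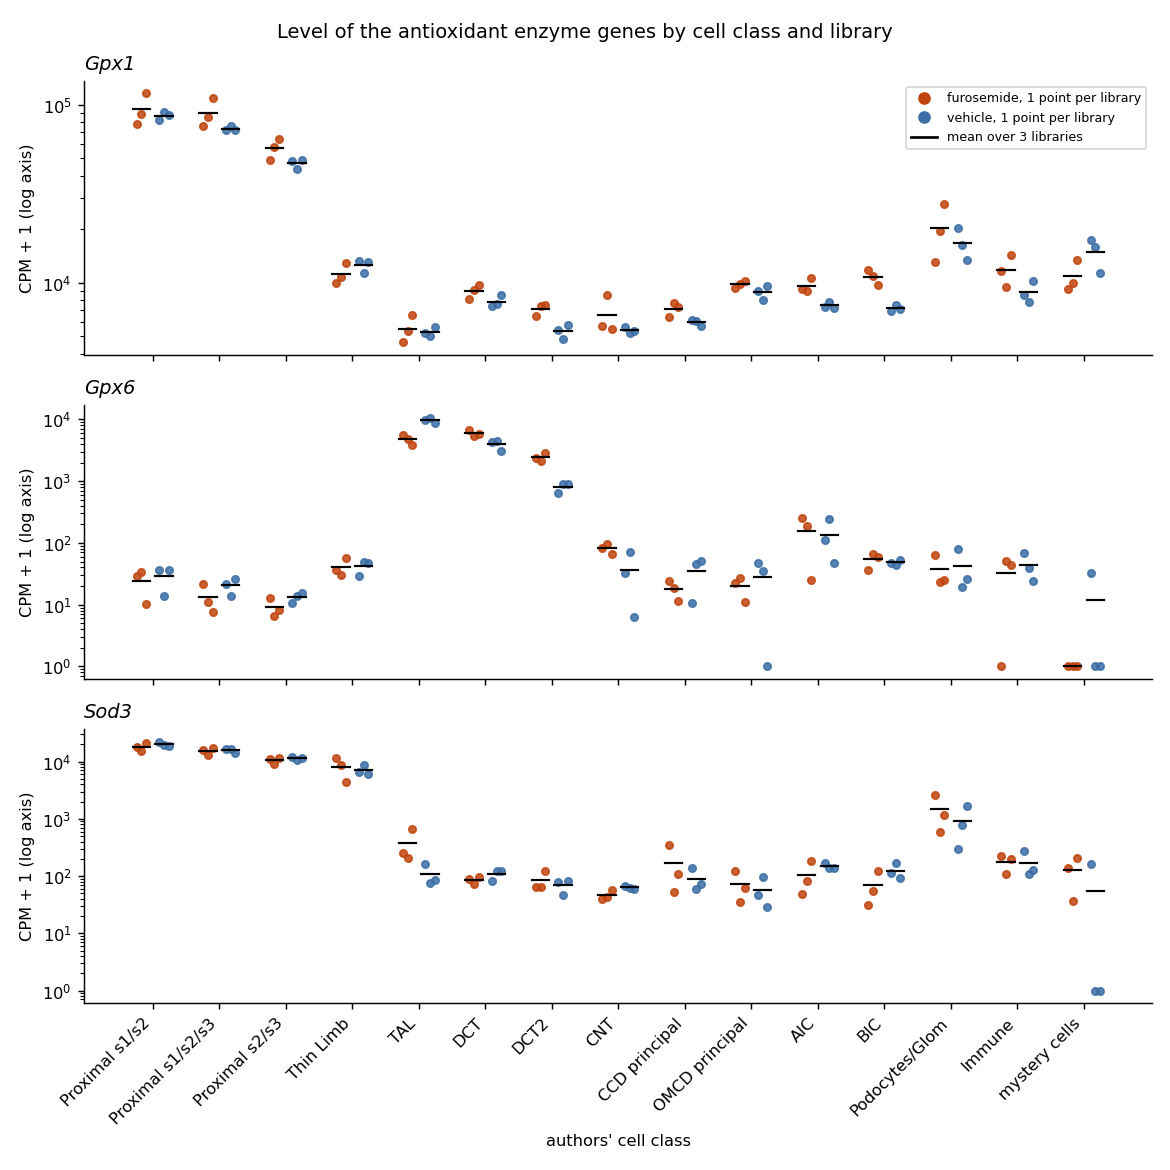
Level of each gene (CPM + 1, log axis) in the 15 cell classes of the authors, with 1 point per library, furosemide left of vehicle, and bars at the mean over 3 libraries. Gpx1 and Sod3 were highest in the 3 proximal classes and Gpx6 in TAL, DCT and DCT2. Sod3 also reached 7207 CPM in vehicle Thin Limb.

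Under furosemide the order of TAL and DCT was turned round. In TAL, Gpx6 had 5521, 4809 and 3845 CPM in furosemide libraries 2, 4 and 6, against 9758, 10699 and 8760 CPM in vehicle libraries 1, 3 and 5. Every furosemide library thus lay below every vehicle library, with a log2 change of -0.94 ± 0.18 (edgeR estimate ± SE), and the gene was called, which means an adjusted p under 0.05 over all genes of the class. Since the genes were chosen on this comparison, being called or not called is a description of where the fit put them and no support for a change. In TAL 4.73% of 317 tested genes were called, 5 higher and 10 lower. The call was lost when any 1 of the 6 libraries was left out, with the log2 change then between -1.04 and -0.78.

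In DCT, Gpx6 had 6636, 5344 and 5845 CPM in furosemide libraries, against 4343, 4401 and 3066 CPM in vehicle libraries. All furosemide libraries lay above all vehicle libraries, but the log2 change of 0.69 ± 0.20 was not called, in a class where 4.73% of 275 genes were. With DESeq2 in place of edgeR it was called.

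In DCT2, Gpx6 had 2362, 2129 and 2885 CPM in furosemide libraries, against 637, 891 and 891 CPM in vehicle libraries. The groups were far apart, the log2 change was 1.52 ± 0.25, and Gpx6 was 1 of 3 genes called among 211, or 1.42%. This call was kept with any 1 library left out (1.27 to 1.75) and was lost without the 5% of cells with the highest totals (1.39). Gpx6 was tested in 8 of the 15 classes. Furosemide libraries were all above in 2 and all below in 1, beside 6.77% and 9.53% over all gene and class pairs. Elsewhere it overlapped and was not called: 1.18 ± 0.57 in CNT (connecting tubule), 0.25 ± 0.86 in AIC, -0.32 ± 0.61 in Proximal s1/s2, -0.71 ± 0.54 in Proximal s1/s2/s3 and -0.49 ± 0.44 in Proximal s2/s3.

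**Figure D2:**
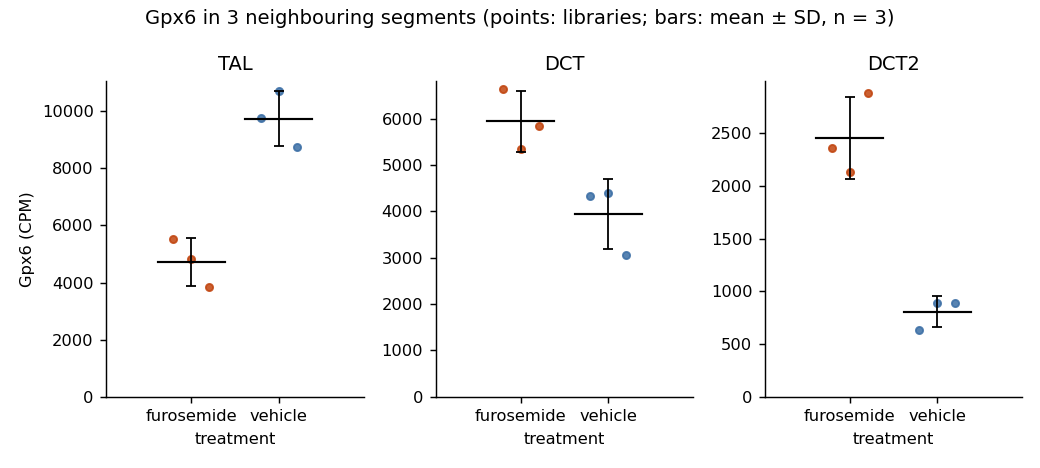
Gpx6 (CPM, linear axes from 0, 1 scale per panel) in TAL, DCT and DCT2, furosemide left of vehicle, with points for libraries and bars for mean ± SD (n = 3). Furosemide libraries sit below vehicle libraries in TAL (4725 against 9739 CPM on average) and above them in DCT (5941 against 3937) and DCT2 (2459 against 806).

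The opposite moves were also set side by side within each library. The log2 level of Gpx6 in DCT minus that in TAL was 0.27, 0.15 and 0.60 in furosemide libraries, against -1.17, -1.28 and -1.51 in vehicle libraries. The difference of the treatment effect between DCT and TAL was therefore 1.66 ± 0.17 on the log2 scale (SE), and between DCT2 and TAL it was 2.65 ± 0.32. DCT cells held more Gpx6 per panel count than TAL cells in all 3 furosemide libraries, and less in all 3 vehicle libraries.

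The same counts were also described cell by cell. This restates the comparison on which the gene was chosen and adds no support. After thinning to 500 counts per cell, Gpx6 was counted in 71.6% to 79.2% of furosemide TAL cells and in 91.0% to 94.4% of vehicle TAL cells. In DCT it was counted in 72.8% to 84.0% of furosemide cells and 48.0% to 61.8% of vehicle cells. In DCT2 the shares were 41.0% to 61.5% in furosemide libraries and 20.3% to 35.6% in vehicle libraries. No pair of these ranges overlapped, and how many of all genes had ranges apart was not counted. Proximal cells, which should lack the gene, gave 0.210% to 2.03% over all libraries. At their own depth the shares averaged 88.9% against 97.1% in TAL, 90.6% against 72.6% in DCT and 73.7% against 46.8% in DCT2 (furosemide against vehicle), at median depths of 1531 and 1485, 1334 and 1318, and 1563 and 1742 counts per cell.

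The number of counts per cell describes the same comparison again. In thinned TAL cells the median was 2, 2 and 1 counts of Gpx6 in furosemide libraries 2, 4 and 6, against 5, 5 and 4 counts in vehicle libraries 1, 3 and 5. Cells with 5 or more counts made up 13.6% to 20.2% of furosemide TAL cells and 44.0% to 53.5% of vehicle TAL cells. The upper quartile was 4, 4 and 3 counts under furosemide, against 7 in each vehicle library, so that high cells were lower too. In DCT the median was 3, 2 and 2 counts in furosemide libraries, against 1, 1 and 0 counts in vehicle libraries. In thinned DCT2 cells, 3.81% to 8.33% of furosemide cells and 0% of vehicle cells reached 5 counts.

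Where a library's Gpx6 came from changed with both level and cell number. TAL cells supplied 44.5% to 58.3% of all Gpx6 counts in furosemide libraries and 86.4% to 92.0% in vehicle libraries, and DCT cells supplied 36.3% to 47.1% and 6.86% to 12.5%. Furosemide libraries held 356 to 696 TAL cells, and vehicle libraries held 823 to 961. Over all cells of a library Gpx6 had 1459, 1354 and 1151 CPM under furosemide, against 2762, 3172 and 2466 CPM under vehicle. The log2 change was -0.998 ± 0.152 and was called, as were 4.46% of 426 genes. In such a whole-library sum fewer TAL cells and less Gpx6 per TAL cell cannot be told apart.

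A second clustering by the authors divides the distal cells further. Its DCT sub1 cluster had 5793 CPM of Gpx6 on average in furosemide libraries and 3644 CPM in vehicle libraries, with no overlap. Its DCT sub2 cluster, with 152 furosemide and 91 vehicle cells, had 8185, 7626 and 7121 CPM in furosemide libraries, against 8293, 8341 and 4526 CPM in vehicle libraries, which overlapped. DCT sub3, which holds 452 of the 485 DCT2 cells, had 2508 CPM under furosemide and 786 CPM under vehicle on average, apart in all libraries.

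Markers were set beside these results. In TAL the summed DCT list, of 4 genes, was higher in furosemide libraries (290 to 364 CPM) than in vehicle libraries (182 to 240 CPM), and so was the CNT (connecting tubule) list (1155 to 1471 against 1104 to 1122 CPM). The Thin Limb list was lower there (6416 to 6957 against 10091 to 11483 CPM), as was the stroma list (21.5 to 33.9 against 35.3 to 239 CPM). The DCT list was higher in all furosemide libraries in 12 of 15 classes. In DCT the TAL list overlapped between groups (153943 to 206829 against 165477 to 230023 CPM). Slc12a1 in DCT was lower under furosemide (122 to 198 CPM against 324 to 470 CPM), and the DCT list was higher (143329 to 150562 against 122295 to 140372 CPM). In DCT2 the DCT list (143069 to 162156 CPM against 130069 to 151268 CPM) and the TAL list (28220 to 34402 CPM against 27507 to 31784 CPM) overlapped between groups, whereas the Thin Limb list was higher (3487 to 6725 CPM against 1829 to 3309 CPM). Calb1, a calcium-binding protein on the DCT and CNT lists, was higher under furosemide in TAL (97.6 to 135 against 36.1 to 42.7 CPM), in DCT (33432 to 54390 against 23956 to 29048 CPM) and in DCT2 (77144 to 83652 against 68832 to 74194 CPM). Slc12a3, the thiazide-sensitive cotransporter, overlapped in DCT (92460 to 111157 CPM under furosemide and 88971 to 112878 CPM under vehicle). The part of these lists in the Gpx6 result was not tested.

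TAL cells differ in the claudins they make: Cldn16 takes part in the paracellular transport of calcium and magnesium, and Cldn10 in that of sodium. TAL cells with counts of Cldn16 and none of Cldn10 (Cldn16-only) were compared with cells of the reverse kind (Cldn10-only) within each library, a split on which the choice of genes did not rest. Gpx6 was lower in Cldn16-only cells in 6 of 6 libraries. It had 1529, 904 and 1431 CPM there in furosemide libraries and 5302, 5068 and 3268 CPM in vehicle libraries. Cldn10-only cells had 8969, 7298 and 7730 CPM in furosemide libraries and 13430, 14531 and 13078 CPM in vehicle libraries. The log2 difference was -1.88 ± 0.27 after TMM scaling (adjusted p = 0.000595, edgeR quasi-likelihood test with library as block, Benjamini-Hochberg over 220 genes). The claudin types differed in many genes, with 47.7% called, 55 higher and 50 lower in Cldn16-only cells, and Gpx6 was the eighth lowest of the 220. In vehicle libraries alone the difference was -1.23 (adjusted p = 0.00379, edgeR), and with cells thinned before the split it was -1.76.

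Gpx1 was higher in Cldn16-only cells by 0.29 ± 0.09 on the log2 scale (adjusted p = 0.0323, the same edgeR test), but its plain CPM was higher in 3 of 6 libraries only, namely in all furosemide libraries (5026 against 4227, 5922 against 4881 and 6758 against 5810 CPM) and in no vehicle library (5163 against 5585, 5057 against 5385 and 5575 against 6670 CPM). In vehicle libraries alone the fitted estimate, after TMM scaling, was 0.23 and so had the opposite sign to the plain levels. Its adjusted p (edgeR) was 0.113 in vehicle libraries alone, and the call was lost with any 1 library but vehicle library 5 left out. For Sod3 no difference was called (-0.26 ± 0.27, adjusted p = 0.480). Of 5 other redox genes tested, 3 were called higher and 0 lower, beside the 47.7% called over all genes. Hmox1, which encodes haem oxygenase, was higher in Cldn16-only cells in 6 of 6 libraries (1.80 ± 0.29, adjusted p = 0.000996, edgeR), and Nfe2l2, which encodes the transcription factor NRF2, in 5 of 6 (0.34 ± 0.10, adjusted p = 0.0182, edgeR). Mt2, a metallothionein, was higher in 4 of 6 (0.60 ± 0.21, adjusted p = 0.0482, edgeR). With 1 library left out, the Hmox1 call was kept each time, with adjusted p (edgeR) between 0.000119 and 0.00688. The Nfe2l2 call was lost without furosemide library 4 and without vehicle library 1, 3 or 5 (adjusted p up to 0.0759, edgeR). The Mt2 call was lost without furosemide library 2 or 4 and without vehicle library 3 or 5, in vehicle libraries alone, and with thinned cells, where the difference was 0.15 (adjusted p = 0.564, edgeR). Hif1a (-0.20 ± 0.09, adjusted p = 0.106, edgeR) had lower levels in Cldn16-only cells in 6 of 6 libraries and Akr1b3 (-0.27 ± 0.14, adjusted p = 0.152, edgeR) in 5 of 6, and neither was called.

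Gpx6 was lower under furosemide in every claudin type, with no overlap of libraries. The types are parts of the same TAL sums, in which all furosemide libraries were already lower, so that they add no separate result. How many of all genes were lower in this way was not counted by type. Over all gene and class pairs of the 15 classes it was 9.53%. Cldn16-only cells averaged 1288 CPM under furosemide and 4546 CPM under vehicle, a log2 ratio of -1.82. Cells with both claudins averaged 4833 and 9149 CPM (-0.92), and Cldn10-only cells averaged 7999 and 13680 CPM (-0.77). Whether the ratio differs between types was not tested. The mix of types differed too: Cldn10-only cells made up 12.1% to 16.0% of furosemide TAL cells and 29.6% to 37.0% of vehicle TAL cells, and Cldn16-only cells made up 15.1% to 20.2% and 11.8% to 14.5%. Cldn16 itself was higher in furosemide TAL (5042 to 7099 against 3035 to 3282 CPM) and Cldn10 lower (14876 to 17239 against 18420 to 20980 CPM), so that the same split does not pick the same share of cells in both groups.

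**Figure D3:**
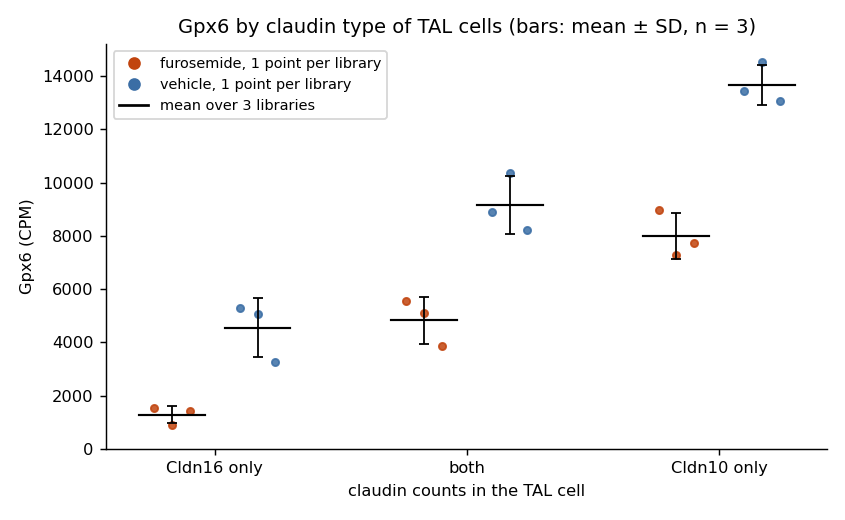
Gpx6 (CPM, axis from 0) in TAL cells sorted by claudin counts, furosemide left of vehicle, with points for libraries and bars for mean ± SD (n = 3). Within each treatment Cldn16-only cells are lowest and Cldn10-only cells highest, and within each type furosemide libraries lie below vehicle libraries.

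Of 411 panel genes with at least 50 CPM in some class, the 5 whose vehicle levels over the 15 classes were most like those of Gpx6 were Egf (Pearson r = 0.99), Ppp1r1a (0.95), Umod (0.95), Sfrp1 (0.91) and Nr0b2 (0.91). Egf, the epidermal growth factor precursor, and Umod, uromodulin, are products of the same segments. The 15 classes share libraries, and these values are descriptions.

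Gpx1 was counted in nearly every cell and was highest in the proximal tubule. In vehicle libraries it reached 86943 ± 4714 CPM in Proximal s1/s2, 73424 ± 2254 CPM in Proximal s1/s2/s3 and 46941 ± 2895 CPM in Proximal s2/s3, each class apart from the next. Podocytes/Glom (16630 ± 3503 CPM), mystery cells (14824 ± 3092 CPM) and Thin Limb (12598 ± 1096 CPM) followed, each of the first pair overlapping the next. The remaining 9 classes lay between 5313 CPM in TAL and 8855 CPM in OMCD principal cells, the principal cells of the outer medullary collecting duct, and most neighbours among them overlapped. Proximal cells supplied 86.8% to 92.4% of a furosemide library's Gpx1 counts and 87.3% to 88.8% of a vehicle library's.

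The level of Gpx1 outside the proximal tubule was set beside that of the proximal markers. In each of these classes its percentage lay above that of the markers in every library. The part of carried-over proximal RNA in the Gpx1 level was not tested. Gpx1 in the other 12 classes stood at 6.23% to 34.2% of the proximal level of its library, while the summed 10 proximal markers stood at 0.222% to 7.10%. In TAL the percentages were 7.40% to 8.83% for Gpx1 and 0.516% to 0.839% for the markers. Thinned to 500 counts, 83.7% to 94.1% of furosemide TAL cells and 89.2% to 91.8% of vehicle TAL cells still had a count.

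Under furosemide Gpx1 was tested in all 15 classes and called in none. Its log2 change was above 0 in 13 classes, with a median of 0.30 over the 15, beside a median of 0.01 over all gene and class pairs. In 6 classes all furosemide libraries were above all vehicle libraries, and in none were all below. Over all 3724 gene and class pairs these shares were 6.77% above and 9.53% below. The classes come from the same libraries, so that these counts of classes are not independent. The 6 classes were Proximal s1/s2/s3, Proximal s2/s3, DCT2, CCD principal (cortical collecting duct), AIC and BIC, the type B intercalated cells.

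The largest of these changes was in BIC, cells that secrete bicarbonate through pendrin. Gpx1 had 11746, 10878 and 9661 CPM in furosemide libraries, against 6902, 7520 and 7106 CPM in vehicle libraries. Every furosemide library was well above every vehicle library, with a log2 change of 0.66 ± 0.13, in a class where 0.408% of 245 genes were called. The median thinned BIC cell held 6, 5 and 5 counts under furosemide, against 3 in each vehicle library. The change was called with DESeq2, without the filter on low counts, with thinned cells, in the second clustering, without the top 5% of totals and without furosemide library 4. Beside it, the proximal list in BIC was lower under furosemide (1453 to 2448 against 2716 to 4870 CPM), the list of 5 dissociation genes was lower (81957 to 94685 against 100744 to 111524 CPM) and the AIC list was higher (87647 to 102649 against 75973 to 86221 CPM). Of the 3 genes on the AIC list only Slc4a1 was highest in AIC, while Atp6v1g3 was highest in BIC itself and Aqp6 in OMCD principal cells. The DCT list was higher in BIC as well (1100 to 1608 against 723 to 921 CPM). The part of these lists in the Gpx1 result was not tested.

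In AIC, cells that secrete acid, Gpx1 had 9204, 9040 and 10684 CPM in furosemide libraries, against 7338, 7781 and 7251 CPM in vehicle libraries. The groups did not overlap, and the log2 change was 0.51 ± 0.16. No gene was called in AIC (0% of 219). The DCT list was higher in AIC too (12724 to 23544 against 3190 to 10052 CPM), and its part was not tested. In Proximal s2/s3 the values were 49275, 57766 and 64605 CPM in furosemide libraries, against 48166, 43635 and 49021 CPM in vehicle libraries, where the lowest furosemide and the highest vehicle library nearly touched (0.36 ± 0.13, with 0% of 291 genes called). In Proximal s1/s2/s3 they were 76183, 85341 and 108697 CPM against 71789, 75995 and 72486 CPM, again nearly touching (0.27 ± 0.15, with 0% of 280 called). Library 6 was the highest of the furosemide libraries in all 3 proximal classes and over all cells (51014 CPM, against 32307 and 33993 CPM in libraries 2 and 4). It was also the highest of them in Thin Limb, TAL, DCT, DCT2, OMCD principal, AIC, Podocytes/Glom, Immune and mystery cells. In Proximal s1/s2 library 6 alone, with 115921 CPM, was above all vehicle libraries. Without it the log2 change there was -0.13 instead of 0.12 (0% of 273 called).

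In DCT2 Gpx1 averaged 7114 ± 561 CPM in furosemide libraries and 5332 ± 470 CPM in vehicle libraries. In CCD principal cells it averaged 7138 ± 662 and 5997 ± 271 CPM, with 0% of 281 genes called there. Beside it, the DCT list (12197 to 19232 against 5055 to 7668 CPM) and the CNT list (14367 to 24250 against 5848 to 10759 CPM) were higher in CCD principal cells, and the AIC list (826 to 2024 against 2214 to 3154 CPM) and the BIC list (46.7 to 100.2 against 231 to 315 CPM) were lower. Their part in the result was not tested. In CNT, the connecting tubule, it had 5734, 8523 and 5518 CPM under furosemide, against 5674, 5243 and 5327 CPM under vehicle, so that library 4 set the mean (5.08% of 256 genes called). The DCT list was higher in CNT (38063 to 51330 against 11617 to 18667 CPM), and its part was not tested. The DCT and CNT lists share Calb1, and how far Calb1 alone moved either list was not tested. Thin Limb (-0.39 ± 0.20, 1.88% of 266 genes called) and mystery cells (-0.34 ± 0.25, 2.29% of 131 called) were the classes with an estimate below 0. The other classes overlapped between groups, with 0% of 244 genes called in OMCD principal, 0.418% of 239 in Podocytes/Glom and 0% of 196 in Immune.

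**Figure D4:**
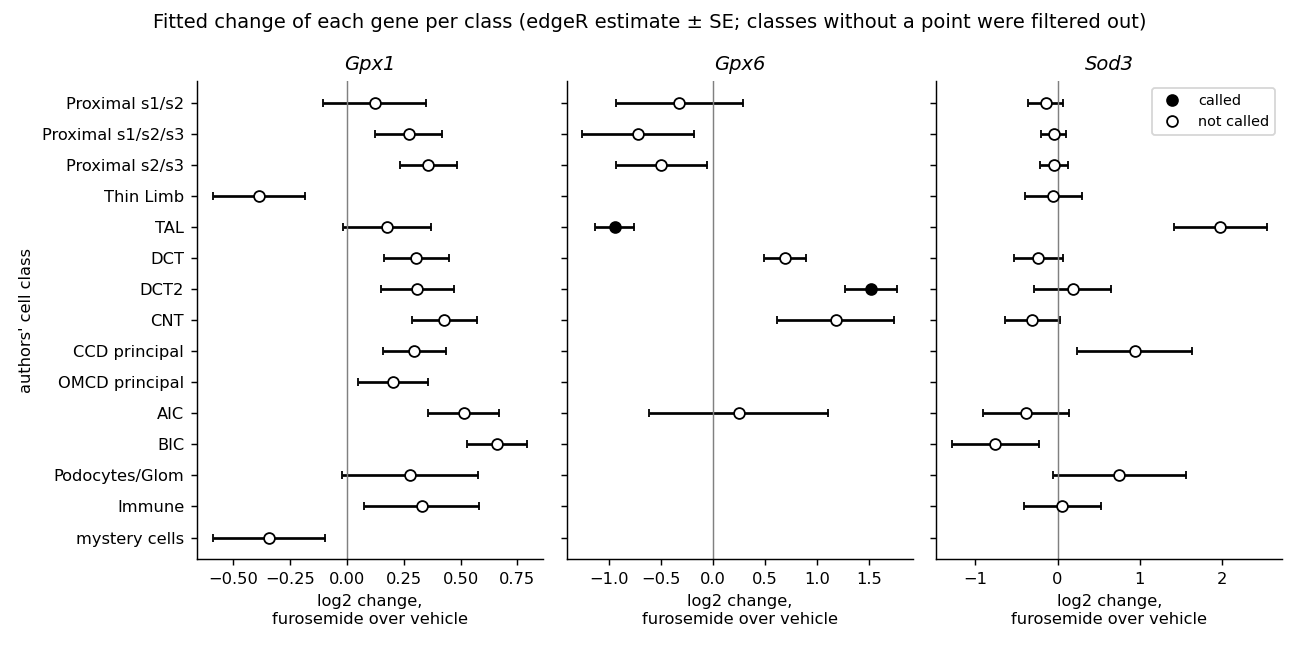
Fitted log2 change of each gene under furosemide over vehicle, by class (edgeR estimate ± SE, 3 libraries a group, 1 scale per panel). Filled points were called, and classes without a point were left out by the filter on low counts. Gpx1 lies above 0 in 13 of 15 classes without a call, Gpx6 is called lower in TAL and higher in DCT2, and the Sod3 point farthest from 0 is TAL.

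The vehicle pattern of Gpx1 over classes was most like those of genes that include Slc22a18 (r = 0.96), Tkfc (0.96), Glyat (0.96) and Slc22a8 (0.95), each highest in a proximal class. Between the 3 genes, r over the 15 classes was 0.88 for Gpx1 and Sod3, -0.48 for Gpx1 and Gpx6, and -0.37 for Gpx6 and Sod3.

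Sod3 was a gene of the proximal tubule and of some Thin Limb cells. In vehicle libraries it reached 20269 ± 1854 CPM in Proximal s1/s2, 15729 ± 1238 CPM in Proximal s1/s2/s3, 11464 ± 788 CPM in Proximal s2/s3 and 7207 ± 1387 CPM in Thin Limb, each apart from the next. Podocytes/Glom had 919 ± 701 CPM, and the remaining 10 classes had 53.5 to 169 CPM with overlapping neighbours. In DCT, DCT2, CNT and OMCD principal cells the level was 0.196% to 0.891% of the proximal level of the library. The proximal markers stood at 0.267% to 1.15% there, and the part of carried-over proximal RNA was not tested. The 5 genes most like it were Tmem252 (r = 0.93), Glyat (0.89), Tkfc (0.89), Gpx1 (0.88) and Slc5a2, a glucose transporter of the early proximal tubule (0.88).

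Within Thin Limb, Sod3 was concentrated in cells with counts of Slc14a2, which encodes a urea transporter of the thin descending limb. This split was made after the values were seen. Those cells had 41710, 25614 and 19391 CPM in furosemide libraries and 22939, 33997 and 22376 CPM in vehicle libraries, from 11 to 47 cells a library. Thin Limb cells without Slc14a2 had 902, 707 and 996 CPM in furosemide libraries and 1006, 1140 and 880 CPM in vehicle libraries. Sod3 was counted in 97.9% to 100% of furosemide and 89.3% to 96.7% of vehicle cells with Slc14a2, and in 33.3% to 39.4% and 33.3% to 38.3% of cells without it. The treatments overlapped in both kinds of cell. Gpx1 showed no such split, with 6925 to 13237 CPM in furosemide and 11401 to 15991 CPM in vehicle cells with Slc14a2, and 8763 to 14195 and 11317 to 13351 CPM in those without.

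Sod3 was tested in 13 classes and called in none, with estimates above 0 in 5 and below 0 in 8. All furosemide libraries were above all vehicle libraries in 1 class (TAL) and below them in 1 (CNT). Over all gene and class pairs such cases made up 6.77% and 9.53%. In the 3 proximal classes the changes were -0.14 ± 0.21, -0.05 ± 0.15 and -0.04 ± 0.17, and the libraries overlapped. In the summed proximal classes it had 13378, 10497 and 15281 CPM under furosemide, against 14742, 14648 and 14066 CPM under vehicle, so that the furosemide libraries spread more widely around a similar level. In CNT it was below all vehicle libraries (38.5, 42.1 and 56.4 CPM against 67.3, 60.4 and 59.2 CPM, -0.31 ± 0.33). The summed proximal list was lower there as well (1020 to 1489 against 1745 to 2791 CPM), and the part of proximal RNA in it was not tested.

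In TAL, Sod3 had 249, 208 and 667 CPM in furosemide libraries, against 159, 74.96 and 85.7 CPM in vehicle libraries. All furosemide libraries were higher, with library 6 standing apart, and the log2 change of 1.98 ± 0.56 was not called. It was called with DESeq2, with equal cell numbers and with thinned cells. Single cells weighed on these sums: 1 cell held 65 of 144 counts in furosemide library 2, 92 of 261 in furosemide library 4 and 67 of 246 in vehicle library 1, but 16 of 492 in furosemide library 6. Without the cell with most counts in each library, a choice made after seeing the data, the levels were 137, 135 and 647 CPM under furosemide, against 116, 70.7 and 79.4 CPM under vehicle. The order was kept, and libraries 2 and 4 came close to vehicle library 1. In thinned TAL cells Sod3 was counted in 5.47% to 25.7% of furosemide cells and 3.62% to 5.25% of vehicle cells, at 48.7% of cells in library 6 at their own depth. The summed proximal list overlapped between groups in TAL (2075 to 2181 CPM under furosemide and 2109 to 2744 CPM under vehicle). Sod3 in TAL stood at 1.86% to 4.37% of the library's proximal level under furosemide and at 0.512% to 1.08% under vehicle. The proximal markers stood at 0.516% to 0.697% and 0.674% to 0.839%. The part of proximal RNA in the Sod3 result was not tested.

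**Figure D5:**
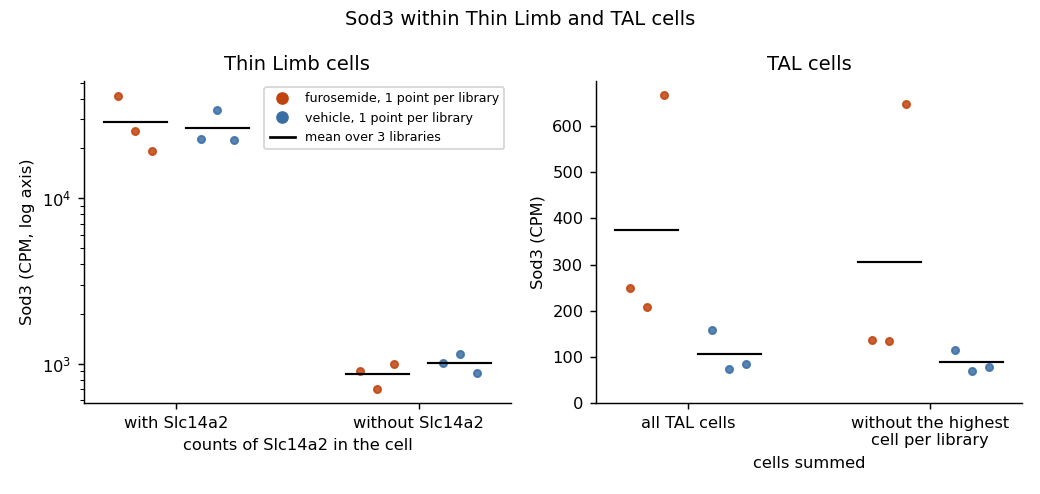
Sod3 in Thin Limb cells with and without counts of Slc14a2 (left, CPM, log axis) and in TAL cells, all or without the cell with most Sod3 counts in each library (right, CPM, axis from 0), furosemide left of vehicle. Points are libraries and bars are means. Thin Limb cells with Slc14a2 lie between 19391 and 41710 CPM and those without between 707 and 1140 CPM, and in TAL furosemide library 6 stands apart with 667 CPM.

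The panel held 9 of 84 listed redox genes, so that catalase, the other glutathione peroxidases and the thioredoxin system were not among those tested. Apart from the 3 genes described, they included Hmox1, Nfe2l2, Mt2, Akr1b3 (aldose reductase) and Hif1a (a hypoxia-inducible factor). In 68 gene and class pairs none was called higher or lower by edgeR, 8 (11.8%) had an unadjusted p under 0.05, and DESeq2 called 2 (2.94%). Over all gene and class pairs these shares were 11.9% and 3.74%. In 2 pairs (2.94%) all furosemide libraries were above all vehicle libraries, and in 3 (4.41%) all were below, beside 6.77% and 9.53% over all pairs. Their median log2 change was 0.03, beside 0.01 over all pairs.

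The pairs that DESeq2 called were Hmox1 in DCT2 and Mt2 in TAL. In DCT2, Hmox1 had 1246, 1204 and 443 CPM in furosemide libraries, against 328, 232 and 175 CPM in vehicle libraries, all higher (1.74 ± 0.38, adjusted p = 0.0782 with edgeR). In TAL, Mt2 had 166, 242 and 210 CPM in furosemide libraries, against 457, 309 and 392 CPM in vehicle libraries, all lower (-0.79 ± 0.18, adjusted p = 0.0571 with edgeR). Nfe2l2 in TAL averaged 2216 ± 199 CPM under furosemide and 2248 ± 194 CPM under vehicle, with overlapping libraries (SD, n = 3 each).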

How the data were processed

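The deposited counts are whole numbers per cell and panel gene. By the name of the deposited table, the authors took out doublets and mixed cells and equalised the number of cells per treatment. The submitters' processing notes list Bowtie2 2.2.9. Build and counting step are not given in the sources used here, nor what a count stands for (read or molecule). The other values, which are library number, treatment and class, come from the deposited annotation. Libraries are separate samples by their labels, and p-values measure only the spread between these samples, which may be technical.

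Sums per library and class (at least 12 cells) were fitted with edgeR 4.0.16 in R 4.3.3 (TMM, filterByExpr, robust glmQLFit, glmQLFTest). Calls are at 0.05 after Benjamini-Hochberg adjustment over the class. Levels are plain CPM. Thinning left out 548 furosemide and 735 vehicle cells below 500 counts. Alternatives used DESeq2 1.42.0 and limma 3.58.1. The fits were tested on simulated data. Members, lists and rules were chosen with earlier results of these data known. Named are the 3 genes in every class, the 5 genes most like each, and redox genes. Some of the genes this rule takes are not reported here. Other genes were named after their values were seen.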

Additional observations from a re-analysis of the deposited data

Results flagged for a closer look

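Gpx6 moved in opposite directions in neighbouring segments. Every furosemide library was below every vehicle library in TAL and above every vehicle library in DCT and in DCT2. These were 1 class below and 2 above among 8 tested, beside 9.53% and 6.77% over all gene and class pairs. The effect in DCT minus that in TAL was 1.66 ± 0.17 (log2, SE), and the effect in DCT2 minus that in TAL was 2.65 ± 0.32.

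Sod3 was above all vehicle libraries in TAL and below them all in CNT, and the effect in TAL minus that in CNT was 2.10 ± 0.48 (log2, SE). These were the 1 class above and the 1 class below among 13 tested, beside 6.77% and 9.53% over all gene and class pairs. The TAL side leans on furosemide library 6. In CNT, Sod3 had 19 to 30 counts in a furosemide library and 11 to 17 in a vehicle library, so that its level there rests on few counts. The summed proximal list was lower in CNT too (1020 to 1489 against 1745 to 2791 CPM), and its part was not tested. None of these 3 differences was tested, because the genes were chosen with the same comparison known.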

How the results depend on the processing

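No paired analysis was possible because the library numbers could not be joined to the replicate numbers of the labels, so that no replicate block could be fitted. Gpx6 in TAL kept its sign and call under other scalings, tools, filters, cell choices and totals, and lost the call with any 1 library left out (-1.04 to -0.78). Over all cells of a library it was between -1.10 and -0.93 with 1 library left out, and called only without vehicle library 5. Gpx6 in DCT2 was 1.27 to 1.75 with 1 library left out, always called, and 1.39 without a call when the top 5% of totals were removed.

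Gpx6 was called in 2 of 8 tested classes, in 1 without the top 5% of totals and in 1 with any library left out. Gpx1 was called in 0 classes, and in 1 (BIC) with DESeq2, without the filter, with thinned cells, without the top 5% of totals, and in 0 to 1 with 1 library left out. Sod3 was called in 0 classes, and in 1 (TAL) with DESeq2, equal cell numbers and thinned cells. All called gene and class pairs numbered 54 of 3724 tested, 139 with DESeq2 (3.74% of 3720), and 19 to 62 with 1 library left out. Other redox genes had 0 calls, 2 with DESeq2, 1 with library size alone, 1 with thinned cells and 0 to 1 with 1 library left out.

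Between claudin types, Gpx1 was 0.23 and not called in vehicle libraries alone, and 0.24 to 0.31 with 1 library left out. Sod3 was -0.43 to 0.03 with 1 library left out (0.0306 without vehicle library 1, the only value above 0), and could not be tested in thinned cells. Estimates that were not called changed sign in 3 alternatives for Gpx1, 4 for Gpx6 and 28 for Sod3. The cause was not tested. Sparse counts limit Sod3 outside proximal and Thin Limb cells and Gpx6 outside TAL, DCT and DCT2.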
